A study of Mus musculus with 9 samples.

Results

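The nuclear genes of the mitochondrial respiratory chain and ATP synthase were followed in splenic B cells of young and aged mice. Genes were taken by name, as symbols that start with Nduf, Uqcr, Atp5, Cox4, Cox5, Cox6, Cox7 or Cox8 or that are Sdha, Sdhb, Sdhc, Sdhd, Cyc1 or Cycs, with a mean of 1 FPKM or more over the 9 libraries. FPKM is a read count scaled to transcript length and to library size. Of 24346 genes listed, 94 symbols matched the names and 89 reached that mean. By role, these were 7 core and 29 accessory subunits of complex I, 8 complex I assembly factors, 4 genes of complex II, 9 of complex III, cytochrome c, 15 of complex IV and 16 of complex V. The 13 subunits encoded by mitochondrial DNA were not analysed here.

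The 3 groups held 3 libraries each, all from the spleen of C57BL6 mice of the wild type. FO B (Young) and FO B (Aged) were follicular B cells, sorted on B220hiCD43-CD23+CD21lo among other markers, from mice of 8 and 50 weeks. ABCs (Aged) were age/autoimmunity-associated B cells from mice of 50 weeks, sorted on B220hiCD43-CD23-CD21loCD11b+CD11c+, so that age was the same as in FO B (Aged) and the cell type differed. The comparisons ask how ABCs differ from FO B cells of the same age, and how FO B cells differ with age. The study describes separate mice within a group, and nothing in the labels ties a replicate number to an animal across groups. No gate separated cells by mitochondrial content, and RNA per cell was not measured, so that a difference in FPKM is a difference in share of the RNA sequenced. In such bulk samples, fewer cells that express a gene and less of its RNA per cell cannot be told apart.

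Respiratory complexes I to IV pass electrons from NADH and succinate to oxygen. Complexes I, III and IV pump protons across the inner mitochondrial membrane, and complex V uses the gradient to make ATP. Most of their subunits are encoded in the nucleus and imported, and they are assembled with subunits made inside the mitochondrion. Resting follicular B cells are known to meet much of their low energy demand by oxidative phosphorylation, and activated B cells raise mitochondrial mass.

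The labelled identities held in the markers. Tbx21, the gene of T-bet, stood at 189, 179 and 165 FPKM in ABCs (Aged) and at 4.75 to 8.72 FPKM in FO B (Aged), while Fcer2a (CD23) stood at 0.463 to 6.95 FPKM in ABCs and at 697 to 728 FPKM in FO B (Aged). Depth, approximated from the step that 1 read makes in low FPKM values, was between 7630000 and 9280000 mapped reads per library. The ABC replicate 3 library had the lowest sum over 6 B lineage genes, at 6528 FPKM against 8103 to 8797 FPKM in the other 5 aged libraries, and it stood apart for several genes below. Since the files hold FPKM, differences were tested with limma on log2(FPKM + 1) over all genes that averaged 1 FPKM or more across the 6 libraries compared, and a gene was called at a Benjamini-Hochberg adjusted p (FDR) under 0.05.

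Respiratory chain genes were abundant and at nearly the same total level in all groups. They summed to 21100 ± 206 FPKM in FO B (Young), 20811 ± 995 FPKM in FO B (Aged) and 22191 ± 296 FPKM in ABCs (Aged) (SD, n = 3 each), which was 3.07%, 3.0% and 3.12% of all FPKM. In FO B (Aged), replicate 3 was the highest with 21960 FPKM, and it overlapped the lowest ABC library, at 21897 FPKM. As a share of all FPKM these 2 groups did not overlap, at 2.98%, 2.96% and 3.06% in FO B (Aged) and 3.11%, 3.08% and 3.17% in ABCs. FO B (Young), at 3.09%, 3.08% and 3.03%, overlapped both. The order of the complexes by summed FPKM was the same in each group, with complex I structural subunits first at 6761 ± 306 FPKM in FO B (Aged), complex V at 5858 ± 295 FPKM, complex IV at 4974 ± 280 FPKM, complex III at 2406 ± 124 FPKM, complex II at 554 ± 5.86 FPKM, complex I assembly factors at 190 ± 2.35 FPKM and Cycs at 68.5 ± 2.33 FPKM. The deposited FPKM appear to use shortened lengths, since 78 genes with 1 annotated length between 400 and 600 bases had an implied length of 0.639 times the annotated one at the median. The effect on the levels of the members was not tested.

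**Figure D1:**
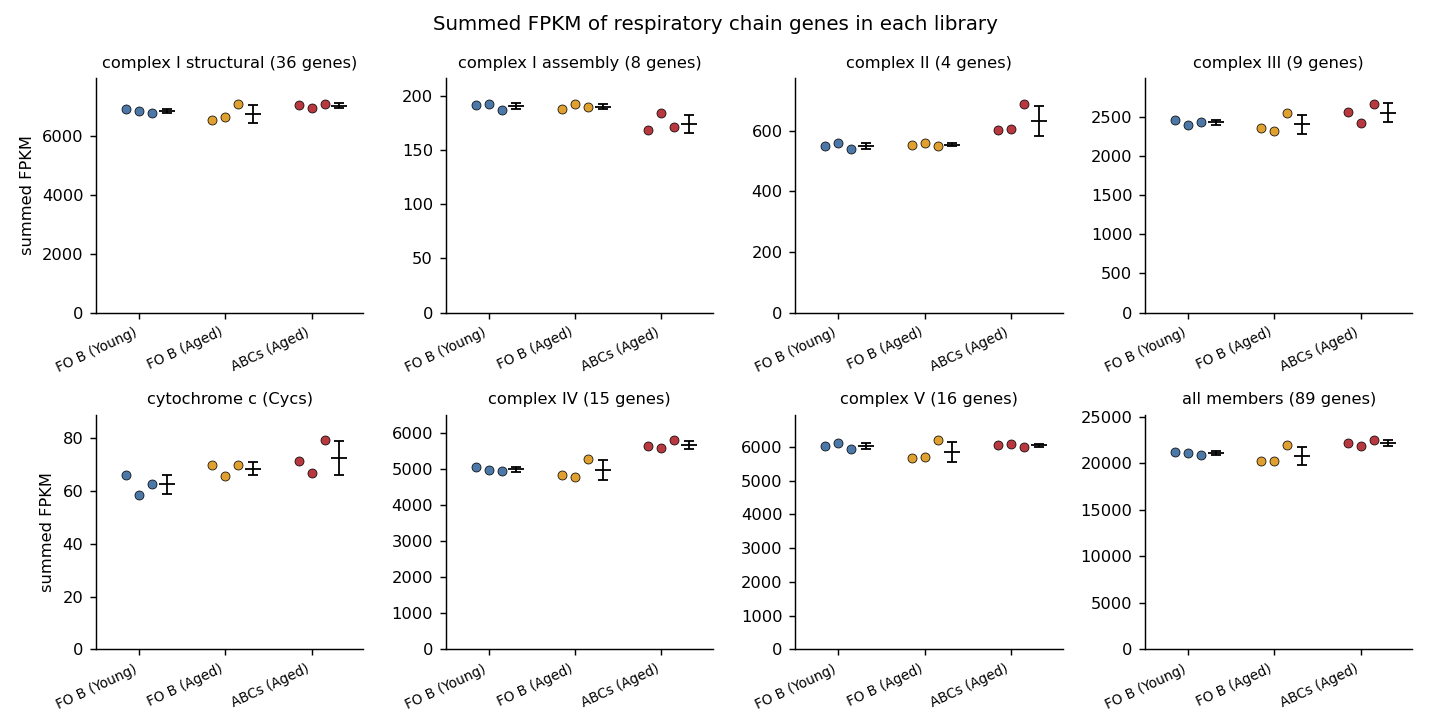
Summed FPKM of the genes of each complex (y axes from 0, in FPKM) in each of the 9 libraries (points), by group, with the mean and SD of 3 libraries beside them. Complex IV lay at 5585 to 5805 FPKM in ABCs (Aged), above all 3 FO B (Aged) libraries at 4779 to 5295 FPKM, while complex V, complex III and complex I structural subunits overlapped.

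Sums of complex IV, complex II and complex I assembly factors did not overlap between the cell types. The 15 genes of complex IV, cytochrome c oxidase, summed to 4848, 4779 and 5295 FPKM in FO B (Aged) and to 5639, 5585 and 5805 FPKM in ABCs (Aged), a ratio of means of 1.14. Complex II had the same ratio of means, with 551, 561 and 550 FPKM against 602, 606 and 690 FPKM, but much of the last value came from 1 gene in ABC replicate 3, described below. Complex I assembly factors were lower in every ABC library, at 168, 184 and 171 FPKM against 188, 192 and 189 FPKM. Here too 1 gene weighed heavily, since the mean of Atp5sl, described below, fell by more than the mean of the sum. From FO B (Aged) to ABCs, Atp5sl went from 56.4 to 38.0 FPKM and the sum from 190 to 174 FPKM. Of the 8 factors, 2 had a positive difference, and the median was -0.15 on the log2 scale. The sum alone thus does not show a decrease shared by the class. With 3 libraries against 3, an exact permutation test of such a sum cannot give a p below 0.1, so none of these sums could pass 0.05 in that test.

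Between ABCs (Aged) and FO B (Aged), differences of single members were small. All 89 genes were tested, and 12 were higher and 4 were lower in ABCs, which is 18.0% of them. The 12 include Cox6a2, which passed the filter on low values through ABCs alone. Over all 10412 genes tested, 35.9% were called, 19.4% as higher and 16.5% as lower, and among the 2091 genes that averaged 50 FPKM or more, a background chosen after the data were seen, the share was 42.3%. The share of respiratory chain genes called was below both backgrounds. Counts of calls in each complex below are to be read against the shares over all genes tested. The median difference was 0.09 on the log2 scale over the members and -0.01 over all genes, and the median size of a difference, without its sign, was 0.13 over the members and 0.27 over all genes. In 84 of 89 members the difference was under 0.5 on the log2 scale, and for 76 of them the 95% interval lay within 0.5 of 0. The 3 libraries of each group did not overlap for 36 members, 26 of them higher and 10 lower, and for 52.6% of all genes tested.

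The balance of higher and lower calls depended on how libraries were scaled to each other. Against 12 higher and 4 lower as deposited, 9 and 4 were called after scaling to TPM, 16 and 3 after median ratio scaling, 20 and 0 after upper quartile scaling, and 3 and 9 after quantile normalization. Upper quartile scaling moved the median of all genes to 0.15 on the log2 scale, a general shift of ABCs against FO B (Aged). It moved that median from 0.00 to -0.12 for FO B (Aged) minus FO B (Young), and from -0.01 to 0.03 for ABCs minus FO B (Young). Each of the 16 called members kept its sign under every alternative run for it (17, or 16 for Cox6a2 and Cox7a1, which a filter of 5 FPKM leaves out), and each of the called members described below lost its call under at least 1 of them.

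**Figure D2:**
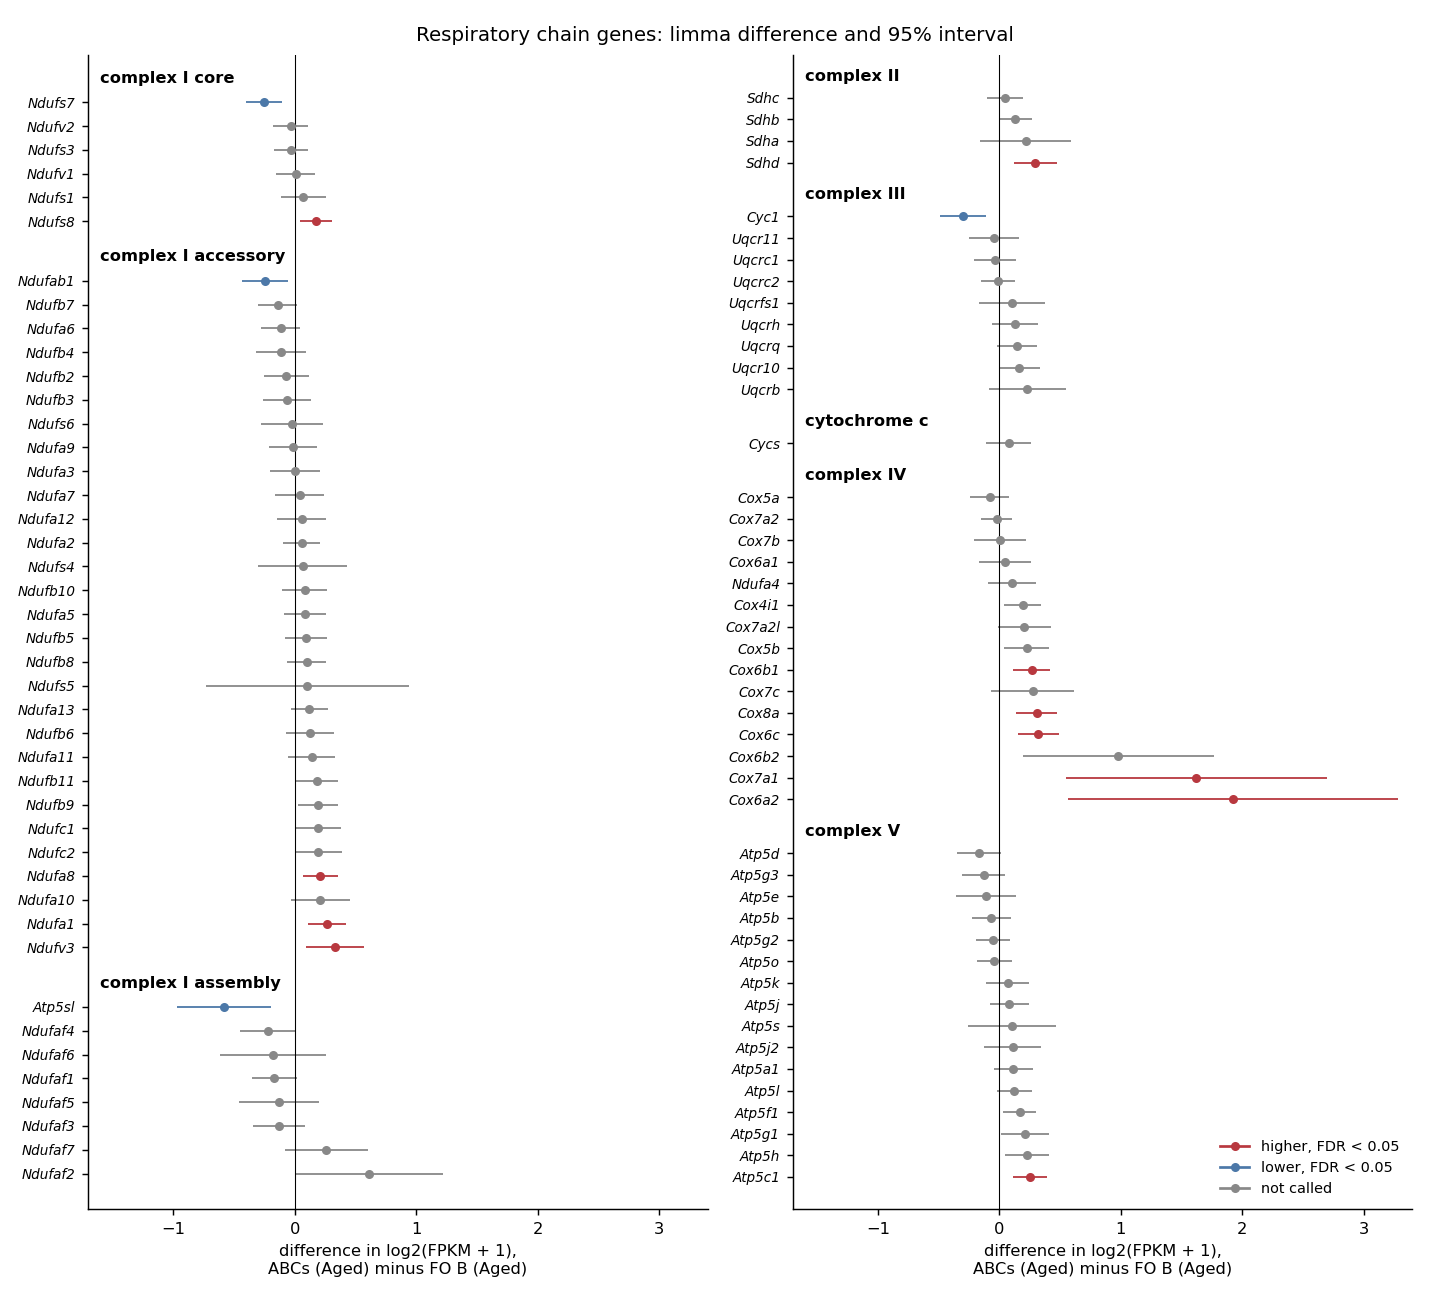
Difference in log2(FPKM + 1), ABCs (Aged) minus FO B (Aged), for 88 of the genes (points) with its 95% interval from limma (lines), ordered within complexes. Most genes lay within 0.5 of 0, and Cox6a2 and Cox7a1, both under 10 FPKM, were the only genes past 1.

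**Figure D3:**
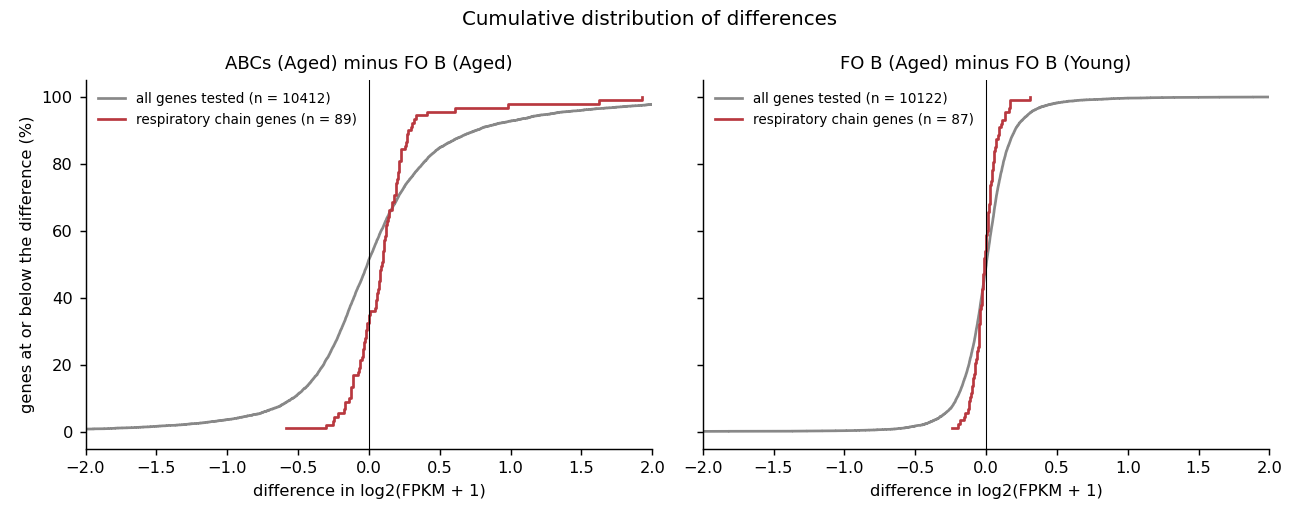
Cumulative share of genes (y axis, %) against the difference in log2(FPKM + 1) (x axis, cut at 2 in both directions), for respiratory chain genes (red) and all genes tested (grey), for ABCs (Aged) minus FO B (Aged) on the left and FO B (Aged) minus FO B (Young) on the right. The red curve is steeper than the grey one in both panels, with a median size of a difference of 0.13 against 0.27 on the left and of 0.05 against 0.09 on the right.

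The core of complex I, the subunits that carry electrons from NADH to ubiquinone, held calls in both directions. Ndufs8, an iron-sulfur subunit next to Ndufs7 in the complex, was at 285, 296 and 295 FPKM in FO B (Aged) and at 333, 327 and 331 FPKM in ABCs, a difference of 0.18 (FDR = 0.0415, limma) that was lost under 11 of 17 alternatives. Ndufs7, which carries the last iron-sulfur cluster before ubiquinone (chr10:80249121-80256794, plus strand), went the other way, with 261, 282 and 285 FPKM in FO B (Aged) and 235, 223 and 236 FPKM in ABCs. Its difference of -0.25 ± 0.06 (SE, FDR = 0.0197, limma) was lost under upper quartile scaling and without ABC replicate 2 or FO B (Aged) replicate 2 or 3. Ndufs1, Ndufs3, Ndufv1 and Ndufv2 had differences between -0.03 and 0.07 and were not called. Called subunits of the core differed in opposite directions, and the core as a whole summed to 1012 ± 27.4 FPKM in FO B (Aged) and 1036 ± 21.7 FPKM in ABCs (SD, n = 3).

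Among the 29 accessory subunits of complex I, which surround the core and take part in its assembly and stability, 3 were higher and 1 was lower. That is 13.8% of them, against 35.9% called over all genes tested. Ndufa1, a small membrane subunit needed for assembly (chrX:37187588-37191163, minus strand), was at 351, 348 and 376 FPKM in FO B (Aged) and at 421, 419 and 455 FPKM in ABCs, 0.27 higher (FDR = 0.0193, limma). The lowest ABC library was above the highest FO B library, young or aged, and the call was lost after quantile normalization and without FO B (Aged) replicate 1 or 2. Ndufv3, of the NADH-oxidizing module, was at 141, 156 and 150.5 FPKM against 191, 163 and 212 FPKM (0.33, FDR = 0.0411), and Ndufa8 was at 115, 118 and 125 FPKM against 135, 141 and 139 FPKM (0.21, FDR = 0.0339). The first of these calls was lost under 10 and the second under 8 of 17 alternatives.

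Ndufab1, the mitochondrial acyl carrier protein, was lower, with 102, 107 and 113 FPKM in FO B (Aged) and 98.2, 84.0 and 89.9 FPKM in ABCs (-0.24, FDR = 0.0492, limma). It was the least stable call, lost under 12 of 17 alternatives, and the FO B (Young) libraries, 102, 91.6 and 94.6 FPKM, overlapped ABCs. Ndufa3 was the most abundant of all members, at 726, 737 and 862 FPKM in FO B (Aged) and 791, 736 and 797 FPKM in ABCs, and it did not differ beyond its spread (0.00, 95% interval from -0.20 to 0.21). Ndufa7 and Ndufa6, the next in abundance in this class after Ndufa1, were not called, at 0.04 and -0.11.

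Ndufs5 was uneven between libraries of the same group. Its FPKM varied 2.58-fold over the 9 libraries, from 20.1 to 51.9 FPKM, with high and low libraries in each group (51.4, 20.1 and 42.3 FPKM in FO B (Young), 26.7, 43.6 and 35.4 in FO B (Aged) and 49.1, 51.9 and 20.1 in ABCs). Of the 50-base windows of its transcript, 31.1% occur unchanged in BC002163, a gene model listed separately in the files. BC002163 alone varied 1.53-fold, from 94.1 to 144 FPKM, and made up most of the sum of the 2 genes. That sum varied 1.23-fold, from 139 to 170 FPKM, with 148, 145 and 166 FPKM in FO B (Aged) and 170, 161 and 164 FPKM in ABCs. The part of shared sequence in the spread of Ndufs5 was not tested. Shared sequence is common here: of 88 members with a single coding entry in GENCODE M21, 27 have an exon that overlaps an exon on the opposite strand, which the unstranded libraries cannot tell apart, and 27 share more than 10% of their 50-base windows with other genes. Among the members called between ABCs (Aged) and FO B (Aged), that share was 13.9% for Cox6c, with Cox6c2, and 12.3% for Ndufab1, and for each of the others under 4%. Among those called against FO B (Young) alone, described below, it was 23.4% for Ndufb9, 17.5% for Ndufb11 and 14.7% for Cox4i1. For each of the others it was 8.33% or less.

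Assembly factors of complex I build the membrane and matrix arms and are not part of the finished enzyme. Atp5sl, an assembly factor of the distal membrane arm in spite of its name (now Dmac2, chr7:25619414-25625551, plus strand), was the largest decrease, with 58.7, 57.6 and 52.8 FPKM in FO B (Aged) and 41.0, 44.9 and 28.1 FPKM in ABCs (Aged). Every ABC library was below every FO B library, young ones included at 58.4, 65.3 and 60.1 FPKM. The difference was -0.58 ± 0.16 (SE, FDR = 0.0302, limma), lost under upper quartile scaling, without a filter and without any 1 of the FO B (Aged) libraries. Ndufaf1 and Ndufaf4 were also below FO B (Aged) in every ABC library but were not called (-0.17 and -0.22). Ndufaf2, an assembly factor related to Ndufa12, had an exon overlap with B230220B15Rik, a gene on the opposite strand that was not analysed here, over 65.7% of its exon bases. It stood at 14.5, 23.8 and 22.2 FPKM in FO B (Aged) and 21.7, 32.2 and 41.2 FPKM in ABCs (0.61 ± 0.26, SE, FDR = 0.105, limma, not called). Of the 8 assembly factors, 0 were called as higher here. With the replicate block 1 was, and likewise under upper quartile scaling and without ABC replicate 1.

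Complex II, succinate dehydrogenase, feeds electrons from the citrate cycle into the chain. Sdhd, a membrane anchor (chr9:50596357-50603812, minus strand), was at 109, 130 and 116 FPKM in FO B (Aged) and at 143, 146 and 146 FPKM in ABCs, 0.30 ± 0.08 higher (SE, FDR = 0.0212, limma). The ABC libraries lay above all FO B libraries, with FO B (Young) at 118, 125 and 124 FPKM. The call was lost after quantile normalization and without ABC replicate 1 or 2 or FO B (Aged) replicate 1 or 3. Sdhb, the iron-sulfur subunit, was at 229, 217 and 221 FPKM against 239, 247 and 245 FPKM and was not called (0.13, FDR = 0.11), and Sdhc, the other anchor, was at 58.0 to 63.2 FPKM in the 6 aged libraries. Sdha, the flavoprotein, was at 155, 154 and 149 FPKM in FO B (Aged) and at 159, 150.3 and 235 FPKM in ABCs, so that only replicate 3 was high (0.22 ± 0.16, SE, FDR = 0.325, limma).

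Complex III moves electrons from ubiquinol to cytochrome c. Cyc1, the subunit that hands the electron over (chr15:76343523-76346260, plus strand), was its only called gene, at 164, 167 and 187 FPKM in FO B (Aged) and 147, 129 and 143 FPKM in ABCs (-0.30 ± 0.08, SE, FDR = 0.0243, limma). All ABC libraries were below all FO B (Young) libraries too, at 160 to 164 FPKM. The call was lost under upper quartile scaling and without ABC replicate 2 or FO B (Aged) replicate 2 or 3. The 2 core proteins Uqcrc1 and Uqcrc2 differed by -0.03 and -0.01, and the most abundant gene, Uqcrb, was at 411, 425 and 476 FPKM against 467, 454 and 633 FPKM (0.23, FDR = 0.221), with the highest value again in ABC replicate 3. Cycs, the somatic cytochrome c, was at 69.9, 65.9 and 69.9 FPKM against 71.4, 66.7 and 79.3 FPKM and did not differ beyond its spread (0.08 ± 0.08, SE, FDR = 0.484, limma).

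Complex IV reduces oxygen, and 13 of its 15 genes had a positive difference, with a median of 0.23 on the log2 scale. Among these are Cox6a2 and Cox6b2, which passed the filter on low values through ABCs alone, and at a filter of 5 FPKM 10 of 12 were positive, with a median of 0.20 and 3 called. The median over all 15 stayed positive under each scaling tried, from 0.14 after quantile normalization to 0.41 after upper quartile scaling, and was 0.23 without ABC replicate 3. Of the 15 genes, 5 were called higher and 0 lower (limma), or 33.3%, which is near the 35.9% called over all genes in either direction. Under quantile normalization 2 were called higher and 0 lower. Without FO B (Aged) replicate 1 or replicate 2, 1 was called, where the share of all genes called fell as well, to 24.5% and 27.8%. For 9 genes, all 3 ABC libraries were above all 3 FO B (Aged) libraries, where 52.6% of all genes did not overlap in either direction.

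Of the abundant small subunits, Cox6c (chr15:35925886-35938246, minus strand) was at 461, 464 and 524 FPKM in FO B (Aged) and at 593, 615 and 600 FPKM in ABCs, 0.32 ± 0.07 higher (SE, FDR = 0.0126, limma). Cox8a, the ubiquitous form of subunit VIII (chr19:7215153-7217616, minus strand), was at 634, 622 and 702 FPKM against 783, 817 and 821 FPKM (0.31 ± 0.07, SE, FDR = 0.0144). Cox6b1, which joins monomers of the enzyme on the side of cytochrome c (chr7:30616861-30626151, minus strand), was at 647, 636 and 693 FPKM against 778, 788 and 811 FPKM (0.27 ± 0.06, SE, FDR = 0.0171). For these 3 genes no ABC library came down to the highest FO B library of either age, and each call was lost after quantile normalization and without FO B (Aged) replicate 1, those of Cox8a and Cox6b1 also without replicate 2. Cox6c shares 250 exon bases with Vps13b on the opposite strand, which was at 5.29 to 7.78 FPKM in the 9 libraries.

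Cox4i1, the common form of subunit IV, was at 596, 613 and 661 FPKM in FO B (Aged) and at 712, 718 and 704 FPKM in ABCs, without overlap, and missed the threshold (0.19, FDR = 0.057, limma). Cox5b was not called either (0.23, FDR = 0.0613). Cox5a, Cox7a2 and Cox7b differed by -0.08, -0.02 and 0.00 and were not called. Ndufa4, a subunit of complex IV named for complex I, was at 508, 548 and 603 FPKM against 575, 574 and 633 FPKM (0.11, FDR = 0.359). Cox7c was at 277, 287 and 290 FPKM against 309, 299 and 442 FPKM, the last in ABC replicate 3, and Cox7a2l, a factor in joining complexes III and IV, was at 157, 133 and 153 FPKM against 183, 173 and 154 FPKM (0.21, FDR = 0.129).

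**Figure D4:**
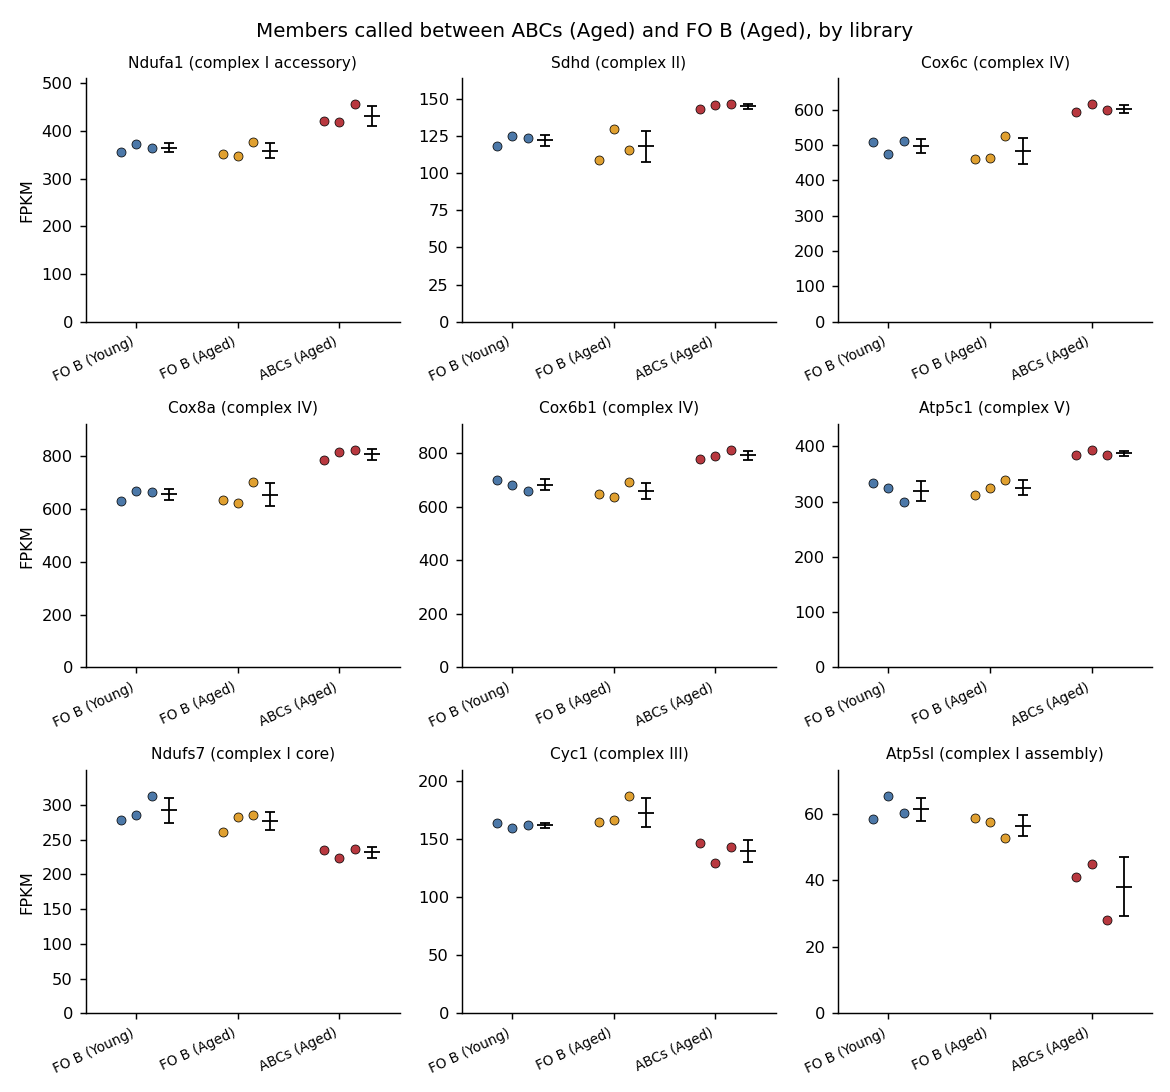
FPKM (y axes from 0) of 9 members called between ABCs (Aged) and FO B (Aged) in each library (points), with the mean and SD of 3 libraries beside them. Ndufa1, Sdhd, Cox6c, Cox8a, Cox6b1 and Atp5c1 are higher in all 3 ABC libraries, and Ndufs7, Cyc1 and Atp5sl are lower in all 3.

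Complex IV subunits also come in tissue-restricted forms, which were near the detection limit. Cox6a2 and Cox7a1, the heart and skeletal muscle forms, were called as higher in ABCs at very low levels. Cox6a2 (chr7:128205435-128206387, minus strand) was at 0, 0.681 and 0 FPKM in FO B (Aged) and 4.10, 8.91 and 0.815 FPKM in ABCs, while Cox6a1, the common form, was at 588 to 650 FPKM in ABCs. The FPKM steps give 2 reads in the FO B (Young) libraries together, 3 in FO B (Aged) and 54 in ABCs, of which 15, 36 and 3 fell in ABC replicates 1 to 3. ABC replicate 3 thus held as many Cox6a2 reads as the FO B (Aged) library that had any. The call (1.92 ± 0.58, SE, FDR = 0.0375, limma) was lost in 5 of the 6 fits without 1 library. Cox6a2 passed the filter on low values through ABCs alone, which partly set its direction, so no conclusion is drawn from its call. Exons of Cox6a2 overlap those of Itgad, the gene of integrin alpha D, on the opposite strand by 70 bases, or 10.3% of its exon bases. Itgad was at 0, 0.0538 and 0 FPKM in FO B (Aged) and at 6.58, 9.80 and 0.515 FPKM in ABCs, the same order over the ABC libraries as Cox6a2. Reads of the 2 genes in the shared bases cannot be told apart without strand, and the part of Itgad in the Cox6a2 values was not tested.

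Cox7a1 was at 2.42, 1.33 and 0 FPKM in FO B (Aged) and 3.20, 6.52 and 6.35 FPKM in ABCs (1.62 ± 0.46, SE, FDR = 0.0296, limma). It was lost under 7 of 16 alternatives, namely both smaller pseudocounts, no filter, the replicate block (FDR = 0.0563) and without ABC replicate 2, ABC replicate 3 or FO B (Aged) replicate 2. The FPKM steps give 5 reads in FO B (Aged) and 21 in ABCs, the fewest that fit the values. The length they imply was short, at 162 of 485 annotated bases, so the true numbers may be higher. Cox6b2, the testis form, was at 1.48, 1.44 and 0.450 FPKM against 3.02, 1.76 and 5.06 FPKM and was not called (FDR = 0.0564). The direction of Cox6a2 and Cox6b2 is partly set by the filter on low values. Their means over the 9 libraries, 1.67 and 1.71 FPKM, with Cox7a1 at 2.70 FPKM, were the lowest inside the rule. Just outside it were Cox7b2 at 0.15, Cox8c at 0.15, Cox4i2 at 0.10 and Ndufa4l2 at 0.04 FPKM, and Cox8b was listed at 0 in every library.

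**Figure D5:**
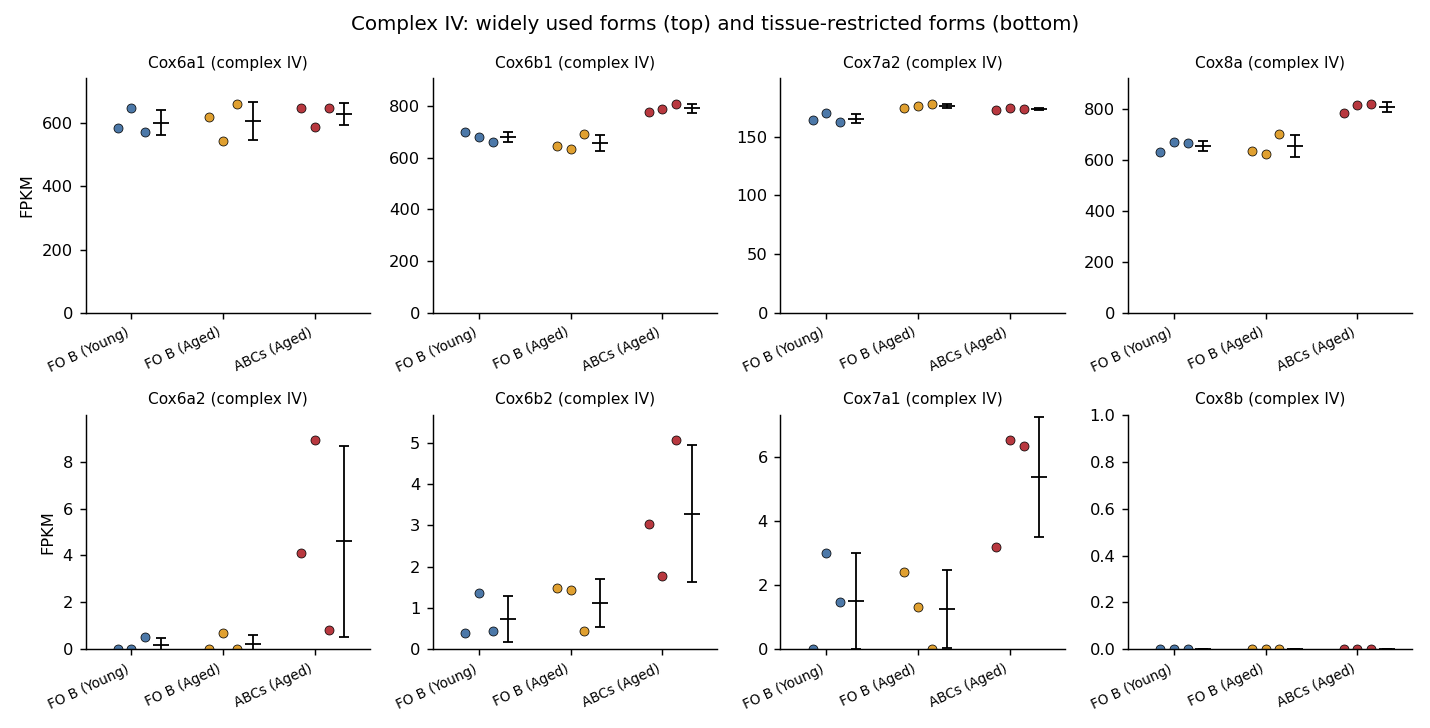
FPKM (y axes from 0, in different ranges) of 4 common forms of complex IV subunits (top) and of 4 tissue-restricted forms (bottom) in each library (points), with the mean and SD of 3 libraries. The restricted forms stay under 10 FPKM in each library, with Cox6a2 between 0.815 and 8.91 FPKM in ABCs, where the common form Cox6a1 is at 588 to 650 FPKM.

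Complex V, the ATP synthase, had 1 call among 16 genes, or 6.25%, against 35.9% called over all genes tested. Atp5c1, the rotating central stalk subunit gamma (chr2:10056016-10080510, minus strand), was at 312, 325 and 339 FPKM in FO B (Aged) and at 385, 393 and 385 FPKM in ABCs, 0.25 ± 0.06 higher (SE, FDR = 0.0154, limma). The lowest ABC library stood above the highest of the 6 FO B libraries, and the call was lost after quantile normalization and without FO B (Aged) replicate 1. Atp5b, the catalytic subunit beta, and Atp5a1, its nucleotide-binding partner alpha, differed by -0.07 and 0.12, with Atp5b at 688, 677 and 684 FPKM against 676, 607 and 676 FPKM. Atp5h, of the peripheral stalk, came near the threshold (0.23, FDR = 0.0563), as did Atp5f1 of the same stalk (0.17, FDR = 0.0607). Atp5g1, Atp5g2 and Atp5g3, which encode 1 and the same mature c-ring subunit, differed by 0.21, -0.05 and -0.13, and none was called. All 16 intervals of complex V lay within 0.5 of 0.

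Age made no difference that passed the test in FO B cells. Of 87 members tested between FO B (Aged) and FO B (Young), 0 were called with limma, and 0.464% of all 10122 genes tested were called. An unadjusted p under 0.05 was found for 8 members, or 9.2%, and for 12.8% of all genes. No alternative called any member. The median difference was -0.01 over the members and 0.00 over all genes, and 83 of the 87 intervals lay within 0.5 of 0, the exceptions being Ndufaf2, Ndufs5, Atp5s and Cox7a1. Libraries did not overlap for 13 members, 6 higher and 7 lower, and for 18.6% of all genes.

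The lowest FDR with age belonged to Ndufa7, an accessory subunit of the matrix arm, which was at 377, 383 and 367 FPKM in FO B (Young) and at 331, 337 and 315 FPKM in FO B (Aged) (-0.20 ± 0.05, SE, FDR = 0.156, limma). Ndufs6, which carries a zinc site of that arm, was at 223, 225 and 231 FPKM against 195, 172 and 208 FPKM (-0.24 ± 0.07, SE, FDR = 0.204). Neither pair of groups overlapped. In ABCs (Aged) Ndufa7 was at 302 to 372 FPKM and Ndufs6 at 169 to 213 FPKM. Ndufb3 (-0.19, FDR = 0.326), Ndufab1 (0.16, FDR = 0.339) and Atp5h (-0.15, FDR = 0.36) followed.

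Against FO B (Young), from which ABCs differ in both age and cell type, 19 members were higher and 8 lower of 89, which is 30.3%. Over all 10438 genes, 40.7% were called, 21.6% as higher and 19.1% as lower. This comparison shares the ABC libraries with the one above and is not independent of it. The split was 13 and 9 after scaling to TPM, 19 and 5 after median ratio scaling, 5 and 0 after upper quartile scaling and 5 and 17 after quantile normalization. Genes called here and not against FO B (Aged) included Ndufaf2, from 14.7, 17.8 and 14.8 FPKM to 21.7, 32.2 and 41.2 FPKM (0.92 ± 0.21, SE, FDR = 0.0129, limma), Sdhb (0.25, FDR = 0.0089) and Cox4i1 (0.22, FDR = 0.0147). Whether the 2 differences of such a gene differ from each other was not tested. In complex I, Ndufb9, Ndufc2 and Ndufb11 were also called here as higher, by 0.20 to 0.24 on the log2 scale, and Ndufb3, Ndufb7, Ndufs6 and Ndufaf1 were called as lower than in FO B (Young), by 0.17 to 0.26 on the log2 scale. Of 17 alternatives, the call of Ndufb3 was lost under 5, of Ndufb11 and Ndufc2 under 9, of Ndufb9 under 10, of Ndufs6 and Ndufaf1 under 11 and of Ndufb7 under 12. That of Cox4i1 was lost under 6, which included each fit without a FO B (Young) library, that of Sdhb under upper quartile scaling, and that of Ndufaf2 under 0.

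Assembly factors outside the naming rule were called in both directions. Among 21 factors of complex IV, 5 were higher and 1 lower in ABCs (Aged) than in FO B (Aged), or 28.6%, against the 35.9% called over all genes. The other lists below are to be read against the same share, and against 19.4% for higher and 16.5% for lower calls. Cmc1, which stabilizes an early intermediate, was at 6.21, 7.81 and 8.23 FPKM in FO B (Aged) and 17.3, 18.5 and 20.4 FPKM in ABCs (1.24 ± 0.12, SE, FDR = 0.000425, limma). Cox17, a copper chaperone for the enzyme, was at 283, 292 and 331 FPKM against 432, 382 and 451 FPKM (0.48, FDR = 0.0066). Both were above every FO B library in every ABC library.

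For complex II, 2 of 4 assembly factors were higher and 1 was lower. Sdhaf4, which acts on the flavinated Sdha subunit, was at 60.5, 53.7 and 56.8 FPKM against 107, 109 and 87.5 FPKM (0.81 ± 0.10, SE, FDR = 0.001, limma), and Sdhaf1, needed for iron-sulfur insertion, was lower (-0.50, FDR = 0.0377). Complex III factors were higher in 2 of 6 and lower in 0, with Uqcc2 at 111, 107 and 111 FPKM against 153, 148 and 147 FPKM (0.44, FDR = 0.0012) and Uqcc1 at 0.26. Factors of complex I outside the rule had 1 higher (Ecsit, 0.24) and 1 lower (Acad9, -0.40) of 8, and of 5 genes for complex V 1 was higher (Atpaf1, 0.42) and 0 lower.

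Of 12 genes tested that maintain and transcribe mitochondrial DNA, 0 were higher and 2 lower in ABCs (limma). Tfam, which packages mitochondrial DNA and starts its transcription, was at 27.3, 31.5 and 30.1 FPKM in FO B (Aged) and 18.4, 18.3 and 18.9 FPKM in ABCs (-0.65 ± 0.08, SE, FDR = 0.0011, limma). Peo1, the mitochondrial DNA helicase, fell as well (-0.71, FDR = 0.0119). Among 77 mitochondrial ribosomal protein genes, 6 were higher and 12 lower, or 23.4%, with a median of -0.05. Mrps28 (-0.63) and Mrps18b (-0.59) had the largest called differences. All 12 lower calls were lost under upper quartile scaling, and none of the 6 higher ones was.

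Of 8 regulators of mitochondrial biogenesis tested, 5 were lower and 0 higher, or 62.5% against 16.5% called as lower over all genes, with a median of -0.41. Of the 5, Myc, Gabpb1 and Pprc1 held under all 17 alternatives, while Nrf1 was lost under 7 of 17 and Ppargc1b under 8 of 16, both of them without ABC replicate 1 or any 1 FO B (Aged) library. Myc was at 36.3, 35.3 and 32.8 FPKM in FO B (Aged) and 16.8, 15.1 and 11.1 FPKM in ABCs (-1.24 ± 0.15, SE, FDR = 0.00086, limma). Gabpb1, the partner of the ETS factor Gabpa, was at 36.1, 33.5 and 37.1 FPKM against 21.9, 19.9 and 24.6 FPKM (-0.67, FDR = 0.002). Nrf1, a transcription factor with sites at many respiratory chain genes, was at 36.9, 35.6 and 39.9 FPKM against 28.1, 32.7 and 30.7 FPKM (-0.29, FDR = 0.0345), and Gabpa itself was not called (-0.07). None of these lists had a gene called between FO B (Aged) and FO B (Young). The calls of Cmc1, Cox17, Sdhaf4, Uqcc2, Tfam, Peo1, Myc and Gabpb1 held under all 17 alternatives, while that of Sdhaf1 was lost under 7, of Uqcc1 under 8, of Acad9 under 5, of Atpaf1 under 3 and of Ecsit under 12. None turned its sign.

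Substrate and nucleotide supply was mixed. Slc25a4, the ADP/ATP carrier of heart and muscle, was at 79.1, 83.5 and 70.6 FPKM in FO B (Aged) and 149, 142 and 153 FPKM in ABCs (0.92 ± 0.08, SE, FDR = 0.000234, limma), and the aspartate/glutamate carrier Slc25a12 was also higher (0.55, FDR = 0.0024). Of 10 carrier genes, 3 were higher and 0 lower. In the citrate cycle and pyruvate dehydrogenase, 3 of 18 were higher and 2 lower, with Suclg2 at 0.68 and Fh1 at -0.42, calls lost under 4 and 1 of 17 alternatives. Of 18 genes that deliver electrons to ubiquinone or make it, 2 were higher and 2 lower. Gpd2, the mitochondrial glycerol phosphate dehydrogenase, was at 19.4, 22.5 and 19.0 FPKM against 8.17, 8.21 and 10.2 FPKM (-1.12 ± 0.12, SE, FDR = 0.00052, limma).

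Markers of other states differed between the cell types as well. Cell cycle genes (5 of 5 at 1 FPKM or more on average in ABCs) summed to 18.5 to 38.4 FPKM in ABCs, with the highest value in replicate 3, and to 10.4 to 12.8 FPKM in FO B (Aged). Plasma cell genes (6 of 6 at that mean) summed to 976 to 1275 FPKM against 443 to 471 FPKM, mostly as Mzb1 (means of 944 and 316 FPKM), with Jchain (38.2 against 5.93 FPKM), Sdc1 (15.8 against 3.11), Prdm1 (4.46 against 0.379) and Xbp1 (134 against 114) also higher on average in ABCs and Irf4 lower (15.6 against 17.3). Of 8 macrophage and monocyte genes, 3 reached that mean in ABCs, and their sum, 194 to 238 FPKM against 9.16 to 15.2 FPKM, was mostly Adgre1. On the same list Cd68 was at 12.6, 13.1 and 6.38 FPKM in ABCs and 3.15, 4.70 and 4.66 FPKM in FO B (Aged), without overlap, and Lyz2 averaged 5.10 FPKM against 3.99 FPKM, while Csf1r, Cd14, Mertk and Fcgr1 averaged at most 0.52 FPKM and Ccr2 0.775 FPKM, with 1.93 FPKM in replicate 3. Of T cell and NK cell genes, Cd3g and Prf1 alone reached it, with Cd3e, Cd4 and Ncr1 under 0.04 FPKM, and neutrophil genes summed to at most 0.645 FPKM in ABCs, with S100a8 and Elane at 0. In FO B (Aged) they summed to 3.09, 0.987 and 21.3 FPKM, with S100a8 at 15.2 FPKM in replicate 3, and in FO B (Young) to 0, 7.73 and 0 FPKM. The part of these marker genes in the differences above was not tested.

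Sites for factors known to act at these genes were sought in the 250 bases before each annotated start (RefSeq, GRCm38.p6), on both strands. Promoters were matched for 75 of 89 members. The NRF1 letters GCGCATGC occurred in 10 of these, or 13.3%, and in 2.56% of all 27025 genes with a promoter. The ETS letters CCGGAAG occurred in 13, or 17.3%, against 7.83%, and the YY1 letters AAGATGGCG in 2, or 2.67%, against 0.71%. Some GCGCATGC matches overlap their own match on the other strand. Any of the 3 occurred in 22 of the 75 members, or 29.3%, and in 10.5% of all genes. Of the 12 called members with a promoter, 4 held 1 of the 3, near the share of all members. These follow with the matched letters in capitals, 30 bases each, and with the NRF1 match of Cycs, the textbook target, for comparison.
Cox6b1 (higher in ABCs; ETS, chr7:30626125-30626154, minus strand): ctcctctcgcagCTTCCGGccagtcggaat
Sdhd (higher in ABCs; ETS, chr9:50603878-50603907, minus strand): accgtctcctgcCTTCCGGttcacgcttca
Ndufa8 (higher in ABCs; NRF1, chr2:36049339-36049368, minus strand): gcgcttgcgcgtcgctggagacGCATGCGC
Atp5sl (lower in ABCs; YY1, chr7:25619429-25619458, plus strand): cgttacctggcAAGATGGCGgcgcccagag
Cycs (not called; NRF1, chr6:50566611-50566640, minus strand): catgctagctcGCATGCGCgcgcacaaacc

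The matches lie 28 and 46 bases before the start in Cox6b1 and Sdhd, 8 in Ndufa8, 53 in Atp5sl (the second of its 2 RefSeq starts) and 60 in Cycs, counted from the first matched base. These starts are those of RefSeq, and the matches of Cox6b1, Ndufa8 and Atp5sl lie inside the longer spans that GENCODE M21 gives for these genes. Of the 10 members with NRF1 letters, 1 was called, Ndufa8, as higher, beside 18.0% of all 89 members and 35.9% of all genes tested. With so few genes, nothing is concluded from this count. Cycs, Ndufa6 and Ndufa11 were among those not called. The letters are a description of sequence, and no binding was measured here.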

How the data were processed

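RNA-seq of 9 libraries was analysed. Per the labels and the study's methods, cDNA was made with SMART-Seq HT, an unstranded full-length kit, and single-end reads of 101 bases were aligned to the mm10 build. The submitters' processing notes name TopHat2 2.1.1, Bowtie2 2.2.8, SAMtools 0.1.18 and Cuffdiff 2.2.1, which differ in part from the versions in the study's methods. The gene annotation is not given in the sources used here. The authors deposited FPKM, 1 value per gene symbol and library, without counts, so no count model was used.

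From FPKM, log2(FPKM + 1) was fitted with limma 3.58.1 (lmFit, eBayes with trend) in R 4.3.3, with the 6 libraries compared, genes averaging 1 FPKM or more, no block, and Benjamini-Hochberg adjustment over all genes tested. A difference in log2(FPKM + 1) understates the change of low genes. P-values measure the spread between 3 libraries per group. Depth and reads of low genes were approximated from the step that 1 read makes in FPKM, over 6380 genes whose values were whole multiples within 0.03. Reads of a gene were taken at the largest step that fits, so they are the fewest that fit. Python 3.11.15, pandas 2.3.3 and matplotlib 3.10.9 did the rest. Steps were tested on simulated data. Gene positions and shared 50-base windows came from GENCODE M21 (GRCm38), and promoters from RefSeq. Ndufa4 was counted with complex IV and Atp5sl with complex I assembly.

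The members and lists were chosen with earlier results of these data known. Members were named by a rule: in each complex the 4 highest and the 3 largest called changes, the 5 lowest FDR with age, paralogues, genes at the limit of 1 FPKM, and the 2 largest called changes of each list. Other genes, such as the member Ndufs5 and, outside the members, Itgad, Nrf1 and Gabpa, were added after their values were seen. A member is not reported here by itself, though counts and sums include it. Alternatives were pseudocounts of 0.1 and 0.01, no filter and a filter of 5 FPKM, 4 other scalings, no trend, all 9 libraries, the replicate block, stricter thresholds, and leaving out each library.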

Additional observations from a re-analysis of the deposited data

How the results depend on the processing

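Between ABCs (Aged) and FO B (Aged), 12 members were higher and 4 lower. Quantile normalization gave 3 and 9, upper quartile scaling 20 and 0, all 9 libraries in 1 fit 19 higher, no filter 2 lower, an FDR of 0.01 gave 1 and 0, and the study's threshold (log2 above 2.3, FDR under 0.01) 0 and 0. Without 1 library the counts ranged from 2 to 12 higher and from 0 to 4 lower. The share of all genes called also fell, from 35.9% to between 24.5% and 35.1% without 1 library, and to 18.5% with no filter. FO B (Aged) replicate 1 (2 and 2), replicate 2 (4 and 0) and replicate 3 (10 and 0) and ABC replicates 1 (8 and 4) and 2 (8 and 1), when left out, each moved a count by 1.5 times or more. The members' median of 0.09 became 0.0051 after quantile normalization, 0.0576 after TPM scaling and 0.27 after upper quartile scaling. With age, the count of 0 held under every alternative run. The median of -0.01 became -0.14 after upper quartile scaling, -0.0351 after quantile normalization and -0.0227 after TPM scaling. It ranged from -0.0421 to 0.0144 without 1 library, positive without FO B (Aged) replicate 1 or 2. Against FO B (Young), 19 and 8 became 5 and 17 (quantile), 5 and 0 (upper quartile), 12 and 2 (no trend), 4 lower (no filter), 5 lower (median ratio), 5 and 1 (FDR of 0.01) and 0 and 0 (study's threshold). Without 1 library, 7 to 20 were higher and 1 to 6 lower, with 7 and 2, 11 and 1, and 7 and 3 without FO B (Young) replicates 1, 2 and 3, 12 and 3 without ABC replicate 1, and 17 and 3 without ABC replicate 2. Here the share of all genes called fell from 40.7% to between 29.2% and 40.0% without 1 library, and to 20.3% with no filter. The median of 0.07 became -0.0436 (quantile), 0.029 (TPM) and 0.12 (upper quartile), and 0.058 to 0.0948 without 1 library. The cause of these shifts was not tested.

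Replicate numbers are shared between groups, but same-numbered libraries correlated at only -0.10 to 0.18 in their deviations, and not every pair exceeded 0.1, so the numbers were not taken to pair the samples. With the replicate block, 9 members were higher and 3 lower against FO B (Aged), and 9 and 3 against FO B (Young). Of 5721 values of single genes under alternatives, 5351 kept their side of the threshold, 316 lost a call, 54 gained one and 0 reversed. Depth of 7630000 to 9280000 reads limits the forms under 10 FPKM. Counting error there enters the test only through the spread between libraries and was not modelled by itself.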
